A study of Mus musculus with 9 samples.

Results

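Voltage-gated sodium and calcium channel genes were followed in cultured mouse cortical neurons, in native neural stem cells (NSCs) and in YAP-induced NSCs (yNSCs). The genes were chosen by symbol alone: every gene of the array annotation named Scn with a number and a or b, every gene whose symbol starts with Cacn, and Fgf11, Fgf12, Fgf13 and Fgf14. Of 18193 genes measured by a probe set with a single symbol, 39 met this rule, through 96 probe sets, and each gene was read from its brightest probe set on average over the arrays. They comprised 8 sodium channel alpha subunits, 3 sodium channel beta subunits, 4 FGF homologous factors, 9 calcium channel alpha1 subunits, 3 calcium channel beta subunits, 4 alpha2delta subunits and 8 gamma subunits.

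Total RNA was measured on 9 Affymetrix Mouse430_2 arrays, 3 for each group, all labelled as biological replicas. Neurons were primary cultures dissociated from the cortex of late embryos or newborn pups and kept in Neurobasal with B27 and cytosine arabinoside (AraC), a drug that kills dividing cells. Native NSCs were kept in a DMEM/F12 medium supplemented with N2, the growth factors EGF and bFGF, and heparin. The yNSCs had been derived from cortical neurons by doxycycline-inducible expression of wild-type YAP, the transcriptional co-activator of the Hippo pathway, were grown in the NSC medium and, per the study's methods, were passaged without doxycycline. The methods describe lentiviral delivery of a tetracycline-responsive YAP construct and of rtTA into the neuron cultures and, for tracing experiments, cultures in which Syn1-Cre or Thy1-Cre marked the neurons. The labels do not say which cultures gave the yNSCs on these arrays, and they give no strain, age or genotype for any group. Whether the replicas came from separate animals or cultures is not given, so that p-values measure the spread between these arrays. Cell type, growth medium and AraC changed together between neurons and both stem cell groups and cannot be told apart.

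Voltage-gated sodium channels consist of a large pore-forming alpha subunit and small beta subunits and carry the inward current that starts and propagates the action potential. Voltage-gated calcium channels open on depolarization and let calcium in, which triggers transmitter release at the presynaptic terminal and calcium-dependent transcription in the cell body. Their alpha1 subunit forms the pore, while the cytoplasmic beta and the extracellular alpha2delta subunits bring it to the membrane and tune its gating. FGF homologous factors stay inside the cell and bind the tail of sodium channels, and several gamma subunits are known as TARPs, which accompany AMPA-type glutamate receptors rather than calcium channels.

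The labels were checked against marker genes first. All 6 neuron markers were lower in both stem cell groups than in neurons, with a log2 summed level of 14.56 to 14.62 on neuron arrays, 11.52 to 11.69 on NSC arrays and 9.97 to 10.25 on yNSC arrays, and 4 of 5 neural stem cell markers were higher in each stem cell group. Between yNSCs and NSCs the neuron markers split, with 3 higher and 2 lower in yNSCs (median 0.53), beside 21.3% and 18.0% of all genes. The summed levels of the stem cell groups follow Map2, which averaged 11.52 in NSCs and 9.76 in yNSCs. Tubb3, Snap25 and Stmn2 were the markers higher in yNSCs than in NSCs. Yap1 read 7.10 to 7.62 on the neuron arrays, 9.52 to 9.87 on the NSC arrays and 9.17 to 9.20 on the yNSC arrays. Markers of other cells moved with the groups as well. All 6 microglia markers were lower in both stem cell groups (summed level 11.26 to 11.79 in neurons, 6.33 to 6.44 in NSCs, 7.31 to 7.34 in yNSCs, with Aif1 and P2ry12 near background in NSCs and Aif1 in yNSCs). Of 7 mural and smooth muscle markers, 4 were higher in yNSCs than in NSCs (12.38 to 12.84 against 9.43 to 9.90, and 7.62 to 7.91 in neurons, with Myh11 near background in yNSCs and Rgs5 and Cnn1 in NSCs), and so were 4 of 6 astrocyte markers (12.44 to 12.65 against 11.18 to 11.79). On neuron arrays the astrocyte markers summed to 12.65 to 12.73, and 4 of the 6 were lower in NSCs than in neurons. Of 6 oligodendrocyte precursor markers, 3 were lower in yNSCs than in NSCs (13.09 to 13.12 against 13.30 to 13.51). The part of these cells in the results below was not tested. A bulk array cannot tell fewer cells of a type from less RNA per cell.

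Most channel genes were lower in both stem cell groups than in neurons. All values are deposited RMA values on the log2 scale, where a step of 1 doubles the signal, and a gene was called at an adjusted p under 0.05. In yNSCs against neurons, 27 of 39 genes were lower, 22 of them at least 2-fold, and 4 were higher, against a background over all genes of 27.9% called lower and 34.6% called higher. NSCs against neurons gave 26 lower, 19 of them at least 2-fold, and 5 higher, against 34.1% and 33.3% of all genes. The median difference of the 39 genes was -1.64 in yNSCs and -0.85 in NSCs, beside -0.01 and -0.07 over all genes. Both comparisons use the same 3 neuron arrays. The medians depended on the probe sets taken. Averaged over every probe set per gene, they were -0.87 in yNSCs and -0.84 in NSCs. In another setting, probe sets with an a, s or x suffix stood for a gene only where it had no other. Such probe sets can match several transcripts or cross-hybridize. The medians were then -1.57 in yNSCs and -1.51 in NSCs, so that in both settings the medians of yNSCs and NSCs lay close together. Between yNSCs and NSCs, 5 genes were higher in yNSCs and 7 were lower, shares of 12.8% and 18.0% beside 21.3% and 18.0% of all genes, with a median of -0.05 beside 0.07, so that these shares were not above the background. The count of 5 rose to 12 with the mean of all probe sets and fell to 2 without NSCs B, NSCs C or yNSCs A and to 3 without yNSCs B or yNSCs C. No call was made for 7 genes in any comparison. Scn7a, Scn9a, Scn10a, Scn4b, Cacna1s and Cacng1 were near background in every group, defined as a group mean below the mean lower quartile of the arrays of that group (3.71 in neurons, 3.43 in NSCs, 3.49 in yNSCs). A probe set that falls to this level gives only a limit on how low the transcript went.

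**Figure D1:**
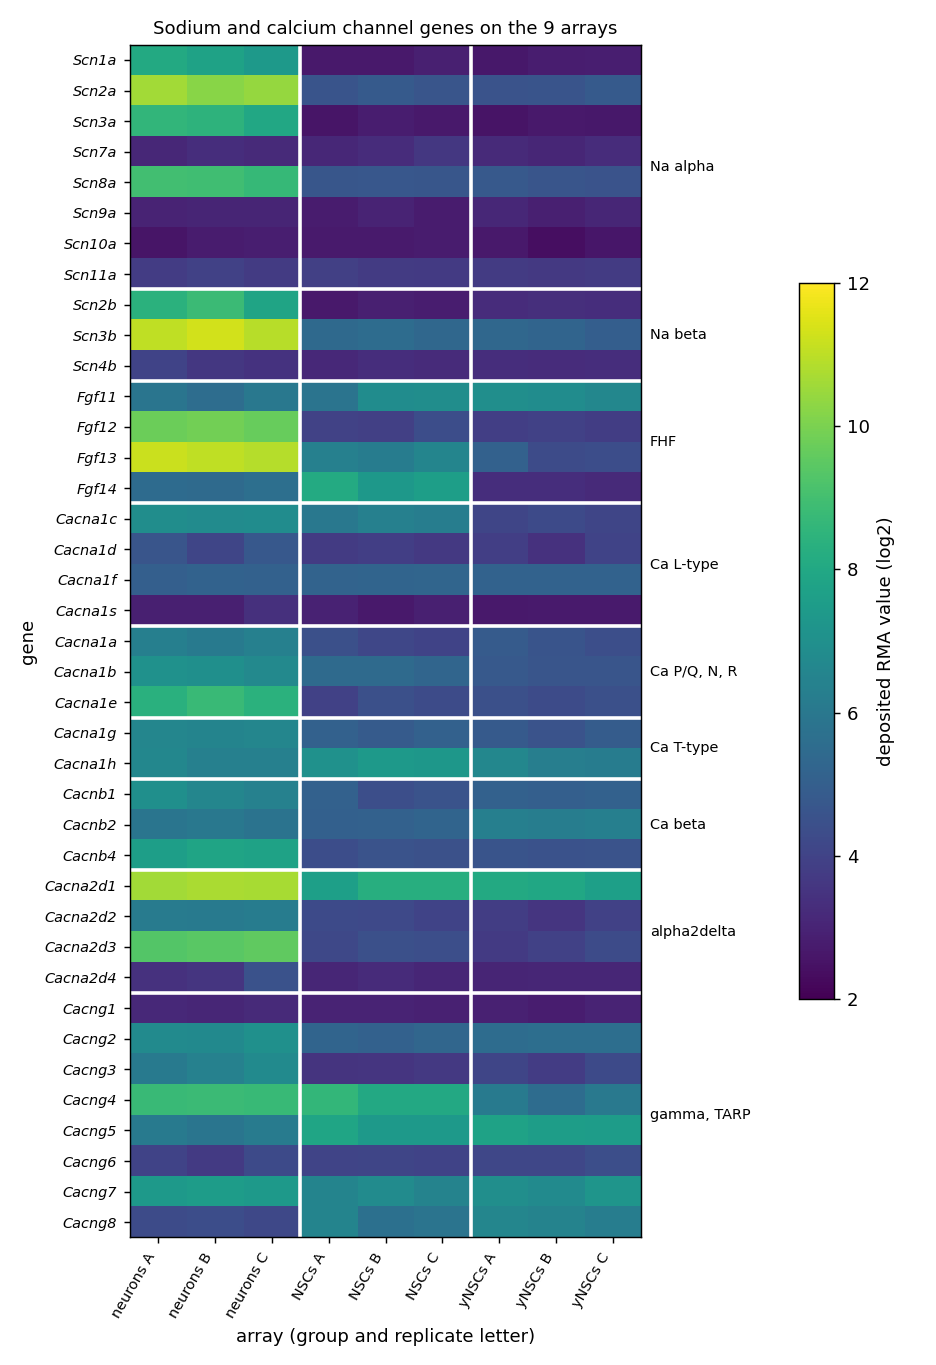
Deposited RMA value (log2, colour) of each of the 39 genes (rows, grouped by subunit class) on each of the 9 arrays (columns). Colours compare arrays within a row and not genes with each other, since probe sets differ in response. Most bright neuron cells, such as Scn2a at 10.21 to 10.61, are dark on all 6 stem cell arrays, while Fgf14 is brightest in NSCs (7.32 to 8.10).

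Of 8 sodium channel alpha subunits, 4 fell in each stem cell group (Scn1a, Scn2a, Scn3a and Scn8a) and 4 were not called. Scn2a, which with Scn8a forms the main sodium channels of cortical excitatory neurons, read 10.61, 10.21 and 10.42 in neurons, 4.59, 4.84 and 4.63 in NSCs and 4.56, 4.58 and 4.82 in yNSCs. Every stem cell array lay far below every neuron array, and the stem cell groups overlapped each other. The difference from neurons was -5.76 ± 0.129 (SE, adjusted p = 6.05e-12) in yNSCs, 54.2-fold, and -5.73 ± 0.129 in NSCs (adjusted p = 5.56e-12). Scn1a, the channel of fast-spiking interneurons, read 8.06, 7.78 and 7.36 in neurons, 2.69, 2.70 and 2.87 in NSCs and 2.64, 2.80 and 2.83 in yNSCs. It was thus near background in both stem cell groups, with differences of -4.98 ± 0.156 in each of them. Scn3a, prominent in the embryonic brain, read 8.60, 8.47 and 7.98 in neurons against 2.58 to 2.81 in NSCs and 2.54 to 2.68 in yNSCs. It fell by 5.73 ± 0.148 in yNSCs with -5.66 ± 0.148 in NSCs, also to near background. For Scn8a the neuron arrays read 8.98, 8.92 and 8.71, the NSC arrays 4.68 to 4.70 and the yNSC arrays 4.55 to 4.79, a difference of -4.21 ± 0.108 in yNSCs and -4.18 ± 0.108 in NSCs.

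No alpha subunit was called between yNSCs and NSCs on the probe set that stands for it. For Scn2a the difference was -0.03 with a 95% interval of -0.32 to 0.25, for Scn1a 0.00 (-0.34 to 0.34), for Scn3a -0.06 (-0.39 to 0.26) and for Scn8a -0.03 (-0.27 to 0.21). The sensory neuron channels Scn9a, Scn10a and Scn11a, together with Scn7a, the sodium-sensing relative of this family, were called in no comparison. Their group means lay between 2.57 and 3.82. Of the 5 probe sets of Scn9a, all near background, 2 were lower in yNSCs and 3 in NSCs than in neurons. With the mean of all probe sets Scn9a was called lower in both (-0.29 and -0.40). Of the 5 probe sets of Scn8a, 4 fell in yNSCs and all fell in NSCs, and all 4 of Scn2a fell in both. The Scn8a probe set that did not fall in yNSCs, 1442208_at (-0.04), was higher in yNSCs than in NSCs (0.39, adjusted p = 0.0165).

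The sodium channel genes that fell and those that did not are in part neighbours. In the RefSeq gene order of GRCm38.p6 on chromosome 2, Scn3a is next to Scn2a, and Scn1a, Scn9a and Scn7a follow each other after 3 other protein-coding genes. Scn3a, Scn2a and Scn1a fell to 2.62 to 4.69, whereas Scn9a and Scn7a read near background in neurons already. On chromosome 9, Scn2b lies beside Scn4b, and Scn10a beside Scn11a.

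RefSeq gives promoter windows for 31 of the 39 genes, 47 windows in all, of which the 250 bases before the annotated start were read. They are shown for the members whose expression the comparisons turn on, to set the genes that fell beside those that rose. Capitals mark matches, on either strand, to 6 short motifs. These are the binding letters of Sp family factors known as the GC box, GGGCGG, and the core recognised by the TEAD family, the DNA-binding partners of YAP, GGAATG. The AP-1 site was searched as TGACTCA. The core promoter element bound by the TATA-binding protein was searched as TATAAA. Of the longer RE1 element of the repressor REST, the left part was searched as TTCAGCACC. The right part was searched as GGACAGCG. No printed matches overlap. For Scn2a the windows of its upstream start (chr2:65620519-65620768, plus strand) and its downstream start (chr2:65668436-65668685, plus strand) are given, followed by that of Scn8a (chr15:100870395-100870644, plus strand), all on GRCm38.p6.
Scn2a upstream start: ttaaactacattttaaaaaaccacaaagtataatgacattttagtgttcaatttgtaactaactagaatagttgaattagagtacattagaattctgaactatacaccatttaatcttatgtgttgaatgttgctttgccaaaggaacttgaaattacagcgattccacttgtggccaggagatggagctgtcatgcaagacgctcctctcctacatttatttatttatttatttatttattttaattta
Scn2a downstream start: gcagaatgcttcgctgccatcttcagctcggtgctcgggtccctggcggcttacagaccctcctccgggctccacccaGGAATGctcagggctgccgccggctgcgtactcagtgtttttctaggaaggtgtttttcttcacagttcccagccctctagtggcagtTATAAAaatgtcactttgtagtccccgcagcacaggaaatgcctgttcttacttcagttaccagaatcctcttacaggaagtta
Scn8a: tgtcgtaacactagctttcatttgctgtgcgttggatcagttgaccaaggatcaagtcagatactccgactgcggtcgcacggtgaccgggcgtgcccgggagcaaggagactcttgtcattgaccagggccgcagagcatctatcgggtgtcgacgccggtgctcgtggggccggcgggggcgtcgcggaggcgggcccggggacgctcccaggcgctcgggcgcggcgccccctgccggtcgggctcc
The upstream Scn2a window, with 29.6% G and C, held none of these letters, a composition at or below which 1.47% of all 32851 windows lie. The downstream window, with 53.2%, held a TEAD core and a core promoter element. The upstream of the 2 Scn8a windows, the one shown, had 68.0% G and C, the other 53.2%, and neither held a match. Over the member windows, the TEAD core was found in 11 of 47 (12.6% of all windows hold it), the GC box in 20 (32.7%), the core promoter element in 2 (12.4%), AP-1 in 2 (4.46%), the right RE1 part in 1 (0.992%) and the left part in 0 (0.301%). A match is a string of letters and not a bound site, and these arrays do not tell which start was used.

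The beta subunits, single-pass membrane proteins that modulate sodium channel gating and adhesion, fell too. Scn3b read 11.05, 11.31 and 10.92 in neurons, 5.40, 5.52 and 5.33 in NSCs and 5.35, 5.22 and 4.97 in yNSCs. It differed from neurons by -5.91 ± 0.132 in yNSCs (60.3-fold, adjusted p = 5.98e-12) and by -5.68 ± 0.132 in NSCs, and the interval between the stem cell groups was -0.53 to 0.05. Scn2b read 8.40, 8.81 and 7.85 in neurons, 2.69, 2.87 and 2.81 in NSCs and 3.28, 3.35 and 3.32 in yNSCs. All yNSC arrays thus lay above all NSC arrays, although both groups were near background. Against neurons the differences were -5.04 ± 0.188 and -5.56 ± 0.188, and between yNSCs and NSCs 0.53 ± 0.188 (adjusted p = 0.0432). This last call was lost when any of 7 arrays was left out (neurons A or any stem cell array), at adjusted p up to 0.117. The other probe sets of Scn2b were not called between the stem cell groups. Scn4b, near background in all groups, fell by 0.41 ± 0.131 in yNSCs (adjusted p = 0.0172) and by 0.46 ± 0.131 in NSCs, and the first call was lost without neurons A (-0.25, adjusted p = 0.0608) or yNSCs B (adjusted p = 0.0574).

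The FGF homologous factors went separate ways. Fgf12 read 9.75, 9.86 and 9.66 in neurons, 3.97, 3.90 and 4.35 in NSCs and 3.84, 3.95 and 3.80 in yNSCs, a difference of -5.89 ± 0.127 in yNSCs and -5.68 ± 0.127 in NSCs, and its 3 probe sets all fell in both. Fgf13, which also binds microtubules in growing neurons, read 11.20, 11.03 and 10.87 in neurons, 6.34, 6.20 and 6.55 in NSCs and 5.10, 4.27 and 4.38 in yNSCs. The 3 groups did not overlap: the differences were -6.45 ± 0.194 in yNSCs, 87.4-fold, -4.67 ± 0.194 in NSCs and -1.78 ± 0.194 between yNSCs and NSCs (adjusted p = 1.47e-05). Its other probe set fell by 3.73 in yNSCs and 4.01 in NSCs and gave 0.28 between them, with no call.

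Fgf14, the factor whose loss causes ataxia, read 5.49, 5.45 and 5.64 in neurons, 8.10, 7.32 and 7.59 in NSCs and 3.31, 3.31 and 3.18 in yNSCs. All NSC arrays lay above, and all yNSC arrays below, every neuron array, and yNSCs were near background. The differences from neurons were 2.14 ± 0.166 in NSCs (adjusted p = 2.02e-07) and -2.26 ± 0.166 in yNSCs (adjusted p = 1.33e-07), and yNSCs were 4.40 ± 0.166 below NSCs, 21.2-fold (adjusted p = 2.43e-09). Its 4 probe sets did not give a single answer. All were lower in yNSCs than in neurons, with differences of -2.26 to -0.85. In NSCs, 2 were higher (1458830_at and 1447480_at, by 2.14 and 0.95), 1449958_a_at was lower (-1.36, adjusted p = 9.61e-06) and 1435747_at was not called (-0.45, adjusted p = 0.0990). Between yNSCs and NSCs, 3 were lower in yNSCs and 1449958_a_at was higher by 0.51 (adjusted p = 0.0219). Which transcripts each probe set detects was not analysed here. RefSeq gives a single window for the gene (chr14:124192547-124192796, minus strand), which is shown because no other member was so far apart in the stem cell groups.
Fgf14: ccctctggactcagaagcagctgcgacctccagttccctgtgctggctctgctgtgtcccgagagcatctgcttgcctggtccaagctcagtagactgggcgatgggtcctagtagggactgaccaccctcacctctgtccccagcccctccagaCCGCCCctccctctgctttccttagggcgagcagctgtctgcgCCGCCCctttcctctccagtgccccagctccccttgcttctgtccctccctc
It held 2 GC boxes and 64.0% G and C. Fgf11 was higher in both stem cell groups. It read 5.88, 5.56 and 5.99 in neurons, 5.86, 6.86 and 6.89 in NSCs and 6.94, 6.88 and 6.63 in yNSCs. The yNSC arrays lay above all neuron arrays, by 1.01 ± 0.237 (adjusted p = 0.00258), while NSCs A fell inside the neuron range, with a difference of 0.73 ± 0.237 for the group (adjusted p = 0.0167). The NSC call was lost without neurons B, NSCs B or NSCs C, at adjusted p up to 0.0768. Its other probe set, 1421793_at, was lower in NSCs (-0.74, adjusted p = 0.0132) and was not called in yNSCs (0.03, adjusted p = 0.930).

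**Figure D2:**
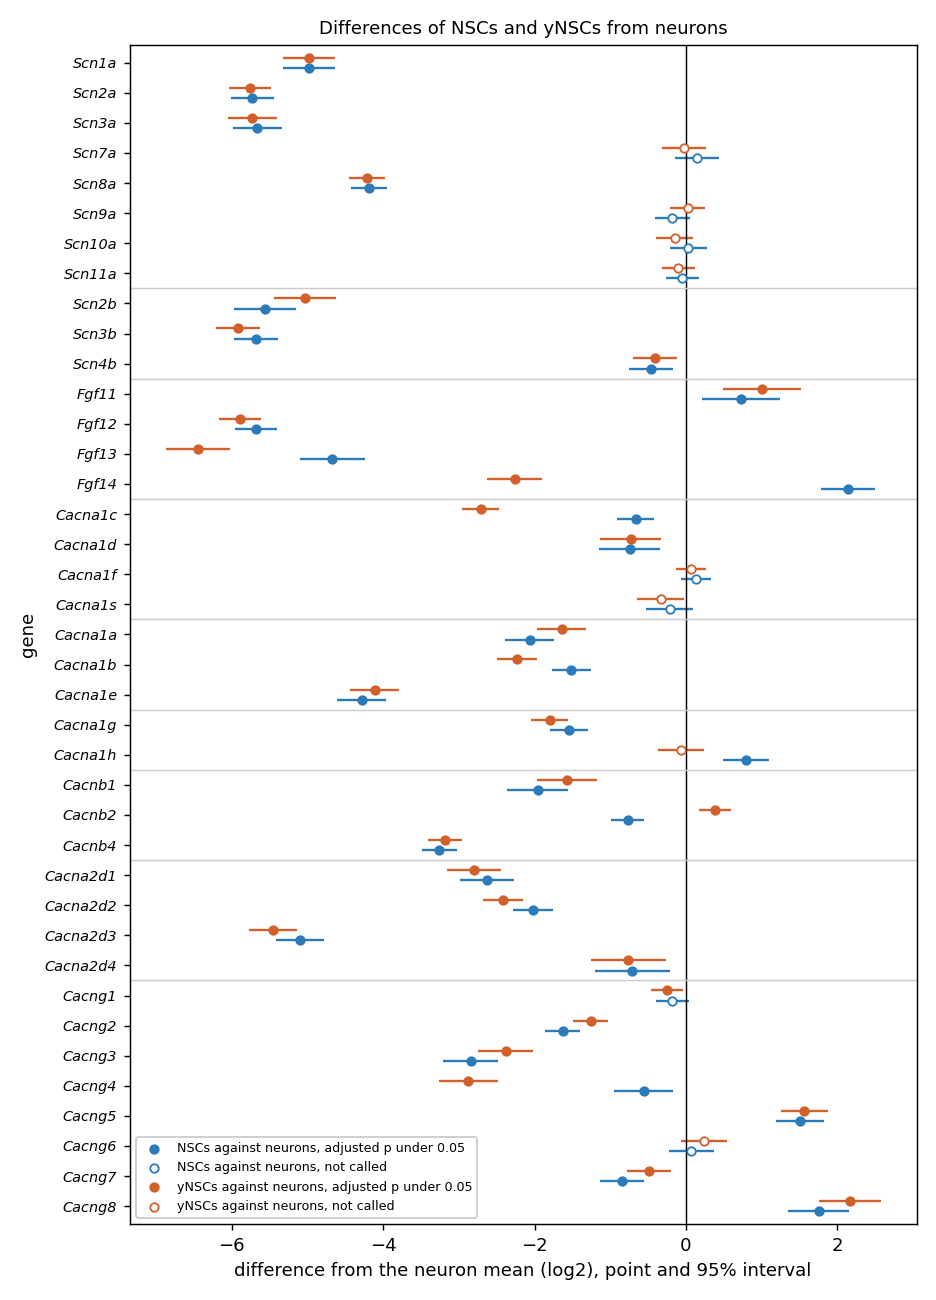
Difference of each gene from the neuron mean (log2) with its 95% interval, for NSCs (blue) and yNSCs (orange). Filled points passed an adjusted p of 0.05 and open points did not. Scn2a sits at -5.76 and -5.73, Fgf14 at -2.26 in yNSCs and 2.14 in NSCs, and Cacng5 and Cacng8 lie to the right of 0 in both.

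The presynaptic calcium channel pores were lower in stem cells. Cacna1e, the R-type pore, read 8.35, 8.76 and 8.40 in neurons, 3.93, 4.45 and 4.28 in NSCs and 4.44, 4.29 and 4.44 in yNSCs. It fell by 4.11 ± 0.149 in yNSCs (17.3-fold, adjusted p = 2.65e-10) and by 4.28 ± 0.149 in NSCs. Cacna1b, the N-type pore that triggers release at many terminals, read 7.07, 6.97 and 6.70 in neurons, 5.47, 5.47 and 5.26 in NSCs and 4.78, 4.64 and 4.63 in yNSCs, with no overlap between any 2 groups. The differences were -2.23 ± 0.120 in yNSCs, -1.51 ± 0.120 in NSCs and -0.72 ± 0.120 between them (adjusted p = 4.37e-04). Its 3 other probe sets fell as well, and 1460608_at, which read 8.55 in neurons on average, fell by 5.99 in yNSCs and by 4.31 in NSCs, so the size of the Cacna1b fall depends on the probe set. Cacna1a, the P/Q-type pore, averaged 6.26 ± 0.12 (SD, n = 3) in neurons, 4.20 ± 0.22 in NSCs and 4.62 ± 0.24 in yNSCs. It fell by 1.64 ± 0.147 (SE) in yNSCs and by 2.06 ± 0.147 in NSCs. Its difference between yNSCs and NSCs, 0.42 ± 0.147 (adjusted p = 0.0379), came with overlapping groups and was lost without NSCs B, NSCs C, yNSCs A or yNSCs B, at adjusted p up to 0.168. Another Cacna1a probe set, 1459996_at, gave 0.45 (adjusted p = 0.011), while 1430408_at (0.24) and 1444455_at (-0.09) were not called.

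Among the L-type pores, which couple calcium entry to transcription, Cacna1c separated the stem cell groups. It read 6.89, 6.84 and 6.86 in neurons, 6.0, 6.37 and 6.24 in NSCs and 4.10, 4.25 and 4.10 in yNSCs. The groups did not overlap, and the fall was 2.71 ± 0.112 in yNSCs (adjusted p = 8.18e-10), 0.66 ± 0.112 in NSCs (adjusted p = 2.18e-04) and 2.05 ± 0.112 from NSCs to yNSCs (4.15-fold, adjusted p = 4.22e-08). The other probe set of Cacna1c gave -2.84, -1.90 and -0.95, all called. Cacna1d fell by 0.73 ± 0.186 in yNSCs and by 0.74 ± 0.186 in NSCs from 4.49 in neurons. A second probe set, 1427974_s_at, which carries a cross-hybridization suffix, fell by 2.70 and 3.50. The probe set that stands for the gene, 1428051_a_at, carries a suffix for several transcripts. Cacna1f and Cacna1s, the retinal and skeletal muscle L-type pores, were called in no comparison.

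The T-type pores, which open near rest, did not move together. Cacna1g averaged 6.57 ± 0.04 (SD) in neurons, 5.02 ± 0.12 in NSCs and 4.77 ± 0.18 in yNSCs, a fall of 1.80 ± 0.113 (SE) in yNSCs and 1.55 ± 0.113 in NSCs. Cacna1h read 6.63, 6.34 and 6.34 in neurons, 7.06, 7.36 and 7.28 in NSCs and 6.63, 6.28 and 6.20 in yNSCs. NSCs lay above both other groups, by 0.80 ± 0.140 over neurons (adjusted p = 2.86e-04) and by 0.86 ± 0.140 over yNSCs (adjusted p = 3.57e-04), and yNSCs overlapped neurons (-0.07, adjusted p = 0.699). The probe set behind these values carries a suffix for several transcripts, and 1427607_at, the other, gave -0.38 in NSCs against neurons (adjusted p = 0.0503) and 0.00 between yNSCs and NSCs.

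The calcium channel beta subunits, which chaperone the pore to the membrane, split. Cacnb4, which is abundant in the brain, read 7.59, 7.83 and 7.78 in neurons, 4.37, 4.57 and 4.49 in NSCs and 4.59, 4.50 and 4.56 in yNSCs, a fall of 3.18 ± 0.104 in yNSCs (9.08-fold) and 3.26 ± 0.104 in NSCs. Its other probe sets, 1436912_at and 1452089_at, fell by 5.14 and 3.79 in yNSCs and by 5.83 and 4.54 in NSCs, so the size of the fall depends on the probe set. Both were near background in NSCs and were called higher in yNSCs than in NSCs (0.69 and 0.75), unlike the probe set used (0.07). Cacnb1 fell by 1.57 ± 0.182 and 1.96 ± 0.182 from 6.64 in neurons. Cacnb2, the beta subunit best known from the heart, read 5.87, 6.0 and 5.81 in neurons, 5.06, 5.10 and 5.21 in NSCs and 6.30, 6.22 and 6.31 in yNSCs. The groups did not overlap: yNSCs were 0.38 ± 0.0981 above neurons (adjusted p = 0.00449), NSCs 0.77 ± 0.0981 below neurons (adjusted p = 1.92e-05) and yNSCs 1.15 ± 0.0981 above NSCs (2.22-fold, adjusted p = 1.82e-06). Its other probe set gave 0.29, which was not called, -0.92 and 1.21. One Cacnb1 window was the single member window with an RE1 part, on chr11:98022628-98022877, minus strand.
Cacnb1: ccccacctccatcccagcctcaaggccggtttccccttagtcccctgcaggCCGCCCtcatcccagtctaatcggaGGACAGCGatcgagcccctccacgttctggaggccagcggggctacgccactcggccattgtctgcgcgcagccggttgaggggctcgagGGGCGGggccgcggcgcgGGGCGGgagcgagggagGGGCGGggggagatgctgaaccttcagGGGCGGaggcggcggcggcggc
The RE1 part starts 174 bases before the annotated start, among 5 GC boxes, in a window of 73.2% G and C.

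All 4 alpha2delta subunits, the extracellular partners that gabapentin-type drugs bind in the case of Cacna2d1 and Cacna2d2, were lower in both stem cell groups. Cacna2d3 read 9.34, 9.43 and 9.54 in neurons, 4.17, 4.43 and 4.42 in NSCs and 3.71, 3.94 and 4.30 in yNSCs, a difference of -5.45 ± 0.146 in yNSCs (43.8-fold, adjusted p = 2.13e-11) and -5.10 ± 0.146 in NSCs. Cacna2d1 read 10.60, 10.74 and 10.71 in neurons, 7.66, 8.25 and 8.25 in NSCs and 8.06, 7.94 and 7.65 in yNSCs. It fell by 2.80 ± 0.163 in yNSCs and by 2.63 ± 0.163 in NSCs and thus stayed well above background in each. A single Cacna2d1 probe set of 5, 1440397_at, ran the other way and was higher by 2.69 in yNSCs (adjusted p = 5.72e-07) and by 2.18 in NSCs (adjusted p = 3.56e-06). Cacna2d2 fell by 2.42 ± 0.120 and 2.02 ± 0.120, and its further fall of 0.40 ± 0.120 from NSCs to yNSCs (adjusted p = 0.0186) was lost without NSCs A, NSCs B or yNSCs B, at adjusted p up to 0.0965. Cacna2d4 fell by 0.76 ± 0.226 and 0.71 ± 0.226 to near background. Its neuron arrays read 3.41, 3.56 and 4.53, and without the last of these, neurons C, the differences were -0.42 (adjusted p = 0.00637) and -0.36 (adjusted p = 0.0126).

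The gamma subunits and TARPs moved in both directions. Cacng4, a TARP, read 8.76, 8.83 and 8.74 in neurons, 8.61, 8.03 and 8.02 in NSCs and 6.12, 5.55 and 6.04 in yNSCs. Only the yNSC arrays lay far below the rest, 2.87 ± 0.179 under neurons (7.33-fold, adjusted p = 2.92e-08) and 2.32 ± 0.179 under NSCs (adjusted p = 7.98e-07). The fall of 0.56 ± 0.179 in NSCs (adjusted p = 0.0155) was lost without NSCs B (adjusted p = 0.0663) or NSCs C (adjusted p = 0.0653), and the other probe set gave -1.86, -0.80 and -1.06 in the same order. Cacng2, known as stargazin, and Cacng3 fell by 1.26 ± 0.107 and 2.38 ± 0.167 in yNSCs and by 1.63 ± 0.107 and 2.84 ± 0.167 in NSCs. Both were above NSCs in yNSCs, by 0.37 ± 0.107 (adjusted p = 0.0153) and 0.46 ± 0.167 (adjusted p = 0.0468). The first of these calls was lost without NSCs B or yNSCs B, at adjusted p up to 0.0631, and the second without any of 6 arrays (neurons B, the 3 NSC arrays, yNSCs A and yNSCs C), at adjusted p up to 0.177. The other Cacng2 probe sets, 1440210_at and 1420596_at, fell further, by 2.61 and 2.81 in yNSCs and by 3.0 and 2.89 in NSCs. Neither was called between yNSCs and NSCs. Cacng7 fell by 0.49 ± 0.134 in yNSCs and by 0.85 ± 0.134 in NSCs, and its other probe set rose by 0.41 in yNSCs.

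Cacng5 and Cacng8, both TARPs, were higher in stem cells. Cacng5 read 6.13, 5.87 and 6.16 in neurons, 7.88, 7.40 and 7.40 in NSCs and 7.75, 7.58 and 7.53 in yNSCs, so all 6 stem cell arrays lay above the neurons. It rose by 1.57 ± 0.144 in yNSCs (2.96-fold, adjusted p = 1.10e-06) and by 1.51 ± 0.144 in NSCs (adjusted p = 1.47e-06), with an interval of -0.26 to 0.38 between them. Its other probe set, 1426330_at, rose by 0.89 in yNSCs but was lower by 0.50 in NSCs (adjusted p = 0.00283). Cacng8 read 4.30, 4.36 and 4.17 in neurons, 6.53, 5.70 and 5.86 in NSCs and 6.60, 6.49 and 6.24 in yNSCs, a difference of 2.17 ± 0.187 in yNSCs (adjusted p = 5.92e-07) and 1.75 ± 0.187 in NSCs. Its other probe set, 1451864_at, was lower, by 0.49 in yNSCs (adjusted p = 0.00467) and by 1.08 in NSCs, so the direction for Cacng8 depends on the probe set. Cacng6 was called in no comparison, and Cacng1, the skeletal muscle gamma subunit, fell by 0.25 ± 0.0970 in yNSCs at background (adjusted p = 0.0385), a call lost without any of 5 arrays (neurons A, neurons C, NSCs B, yNSCs A and yNSCs B), at adjusted p up to 0.153. The gamma genes lie in clusters, Cacng1, Cacng4 and Cacng5 in a row on chromosome 11 and Cacng7, Cacng8 and Cacng6 on chromosome 7, and neighbours such as Cacng4 and Cacng5 moved in opposite directions. A window of Cacng5 is printed as that of a gene that rose (chr11:107915056-107915305, minus strand).
Cacng5: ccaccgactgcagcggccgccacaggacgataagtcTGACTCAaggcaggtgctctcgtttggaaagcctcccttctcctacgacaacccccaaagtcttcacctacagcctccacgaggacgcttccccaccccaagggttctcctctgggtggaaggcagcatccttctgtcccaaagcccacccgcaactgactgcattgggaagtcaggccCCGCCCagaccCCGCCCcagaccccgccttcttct
It held an AP-1 site 214 bases before the annotated start and 2 GC boxes, and 62.0% of it was G or C.

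**Figure D3:**
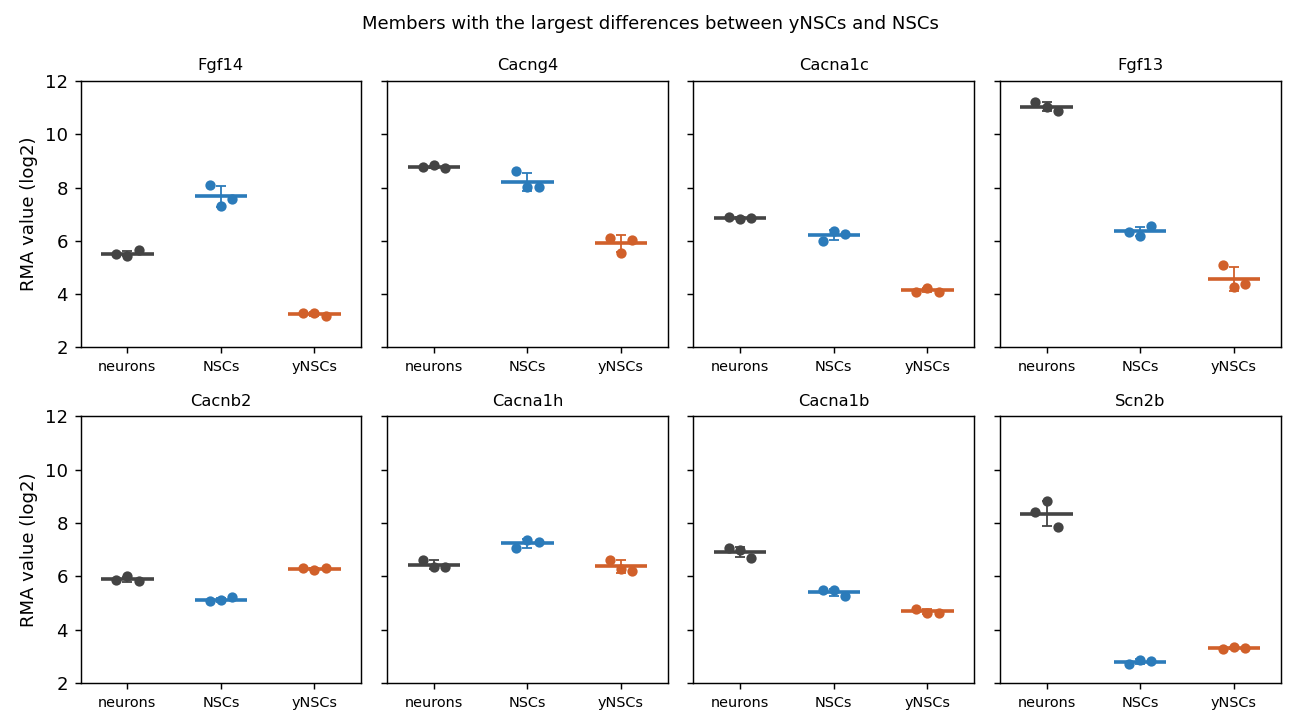
RMA value (log2) of the 8 genes with the largest called differences between yNSCs and NSCs without overlap of these groups. Points are arrays, bars the mean and error bars the SD (n = 3). Fgf14, Cacng4, Cacna1c, Fgf13, Cacna1h and Cacna1b are lower in yNSCs than in NSCs, and Cacnb2 and Scn2b are higher.

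Of the 12 calls between yNSCs and NSCs, 7 held when each of the 9 arrays was left out in turn, those of Fgf13, Fgf14, Cacna1b, Cacna1c, Cacna1h, Cacnb2 and Cacng4. Against neurons, 29 of 31 calls held in yNSCs and 29 of 31 in NSCs, and no called difference changed sign. Normalizing the arrays to common quantiles once more ended the calls of Cacnb2 in yNSCs (0.23, adjusted p = 0.0727), of Fgf11 in NSCs (0.52, adjusted p = 0.0742), of Scn4b and Cacna2d4 in both, of Cacng1 in yNSCs, and of Scn2b and Cacng3 between yNSCs and NSCs. It gained calls of Scn7a in NSCs (0.41), of Cacng6 in yNSCs (0.46) and of Cacng7 between yNSCs and NSCs (0.39). Of 6 oligodendrocyte precursor markers, 3 were lower in yNSCs than in NSCs (Pdgfra, Cspg4 and Olig2), while Olig1, Sox10 and Gpr17 were not called. Against neurons, 2 were higher and 4 lower in yNSCs, and 3 were higher and 3 lower in NSCs, with a summed level of 12.12 to 12.15 in neurons. Pdgfra read 9.50 to 9.81 in neurons, 6.92 to 7.41 in NSCs and 3.91 to 4.10 in yNSCs, and Cspg4 6.27 to 6.54, 7.89 to 8.12 and 5.70 to 5.91. Olig2 read 8.72 to 8.88 in neurons, 11.33 to 11.63 in NSCs and 10.75 to 10.85 in yNSCs. The part of these cells in the lower values of Fgf14, Cacna1c and Cacng4 in yNSCs than in NSCs was not tested.

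Of the 30 member genes with more than 1 probe set, some carry a second probe set whose call opposes that of the gene. This was so for 3 of the 26 such genes with a call in yNSCs against neurons (Cacna2d1, Cacng7 and Cacng8), for 5 of 27 in NSCs against neurons (Fgf11, Fgf14, Cacna2d1, Cacng5 and Cacng8) and for 1 of 11 between yNSCs and NSCs (Fgf14). All 4 genes called at least 2-fold higher in a stem cell group (Fgf11, Fgf14, Cacng5 and Cacng8) are among these genes, and no sodium channel subunit is. The opposing call was not always in the comparison with the 2-fold rise. In yNSCs against neurons, where Fgf11, Cacng5 and Cacng8 rose at least 2-fold, only Cacng8 had one. There Cacng5 rose on both probe sets, and the other Fgf11 probe set was not called. The counts above leave out genes without a call of their own. Between yNSCs and NSCs, several of those had another probe set called higher in yNSCs. They were Scn8a, Fgf11, Fgf12, Cacna1d, Cacna1e, Cacnb1, Cacnb4, Cacng5, Cacng6, Cacng7 and Cacng8, with 1.39 for Cacng5 (1426330_at) and 1.13 for Cacnb1 (1426108_s_at). A Cacna2d1 probe set was called lower.

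**Figure D4:**
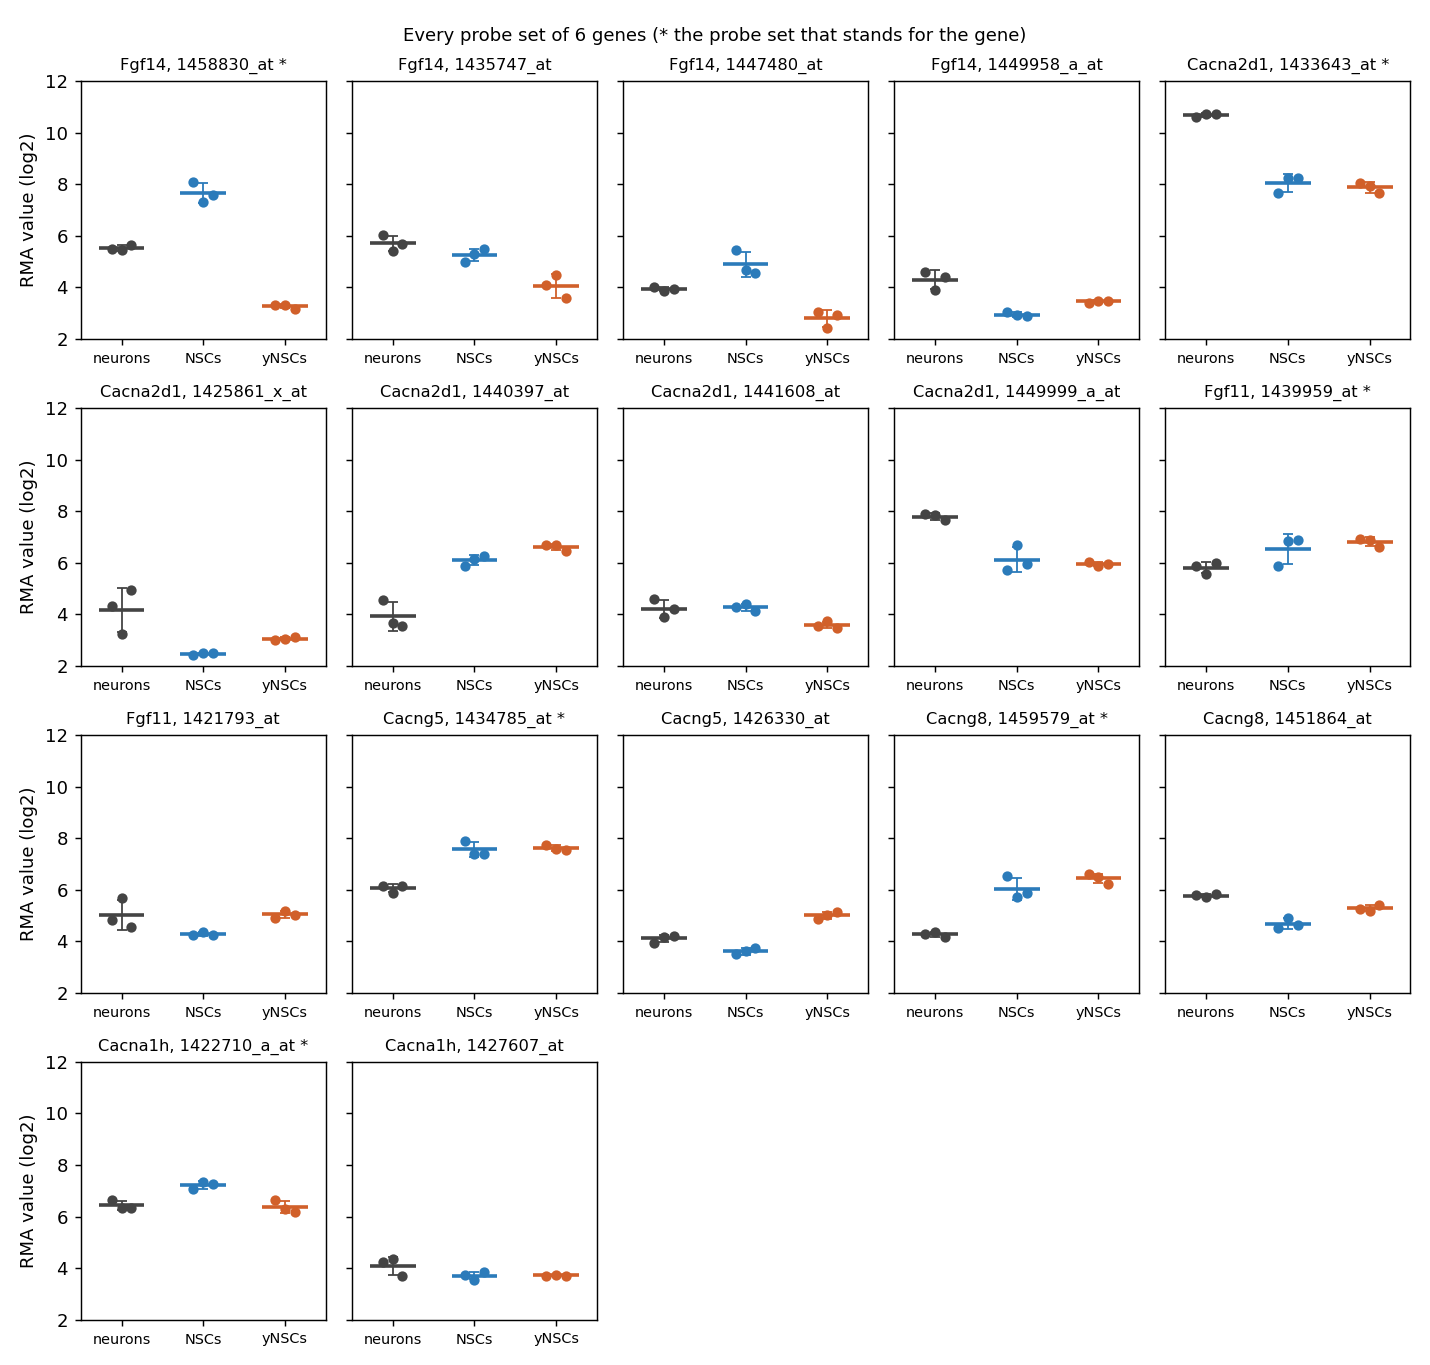
RMA value (log2) on each array for every probe set of 6 genes, with the mean (bar) and SD (error bar, n = 3). The asterisk marks the probe set that stands for the gene. For Fgf14 the marked set averages 7.67 in NSCs while 1449958_a_at averages 2.95, and for Cacna2d1 a single set, 1440397_at, rises.

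Genes that hold these channels in place or act with them were counted from lists that the rule did not use. Their counts stand beside 34.6% of all genes called higher and 27.9% called lower in yNSCs, and 33.3% and 34.1% in NSCs. Of 9 anchors and partners at the axon initial segment, where sodium channels cluster, 7 were lower in yNSCs and 8 in NSCs (medians -1.93 and -2.45), and none was higher. The adhesion molecule L1cam fell by 5.87 ± 0.178 in yNSCs and by 6.37 ± 0.178 in NSCs, and Cntn1 by 4.51 ± 0.154 and 4.04 ± 0.154. Ank3, the scaffold ankyrin G, was 1.11 ± 0.135 higher in yNSCs than in NSCs (adjusted p = 3.56e-05), and Nedd4l, a ubiquitin ligase of sodium channels, was not called against neurons (-0.11 and 0.23). Of 10 presynaptic partners of calcium channels, 9 were lower and 1 was higher in each stem cell group (medians -3.35 and -3.52). Syt1, the calcium sensor of release, fell by 7.77 ± 0.156 in yNSCs and by 5.03 ± 0.156 in NSCs, Snap25, which is also one of the neuron markers, by 5.81 ± 0.150 and 7.94 ± 0.150, and Rims1, which tethers calcium channels at the active zone, by 4.57 ± 0.112 and 4.73 ± 0.112. Cask was the gene that was higher, by 0.67 ± 0.123 and 0.34 ± 0.123. The sodium leak channel Nalcn and its partners Unc80 and Fam155a were lower in both, Nalcn by 4.23 ± 0.0977 and 4.86 ± 0.0977, and Unc79, near background in every group, was not called.

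Other routes and targets of calcium were mixed. Of 20 genes of calcium release, store-operated entry, pumps and exchangers, 5 were higher in each stem cell group, 11 were lower in yNSCs and 12 in NSCs (medians -0.58 and -0.70), beside 34.6% and 33.3% of all genes higher and 27.9% and 34.1% lower. The ryanodine receptor Ryr2 fell by 5.08 ± 0.166 in yNSCs and by 5.03 ± 0.166 in NSCs to near background. By contrast the inositol trisphosphate receptor Itpr2 rose by 1.69 ± 0.150 and 2.86 ± 0.150, the store sensor Stim2 by 0.94 ± 0.137 and 2.23 ± 0.137 and the store-operated pore Orai1 by 1.21 ± 0.136 and 1.27 ± 0.136. Their relatives were mixed. Stim1 averaged 6.60 in neurons, 5.82 in NSCs and 5.83 in yNSCs, and Orai2 6.76, 5.21 and 6.19, both lower in stem cells. Orai3 averaged 5.86, 6.96 and 6.80 in the same order. Itpr3 was called against neurons in neither (0.14 and -0.24). Of 20 calcium effectors and buffers, 3 rose and 16 fell in yNSCs, and 2 rose and 17 fell in NSCs (medians -1.35 and -1.19). The buffer Calb1 fell by 8.18 ± 0.119 and 8.17 ± 0.119 and the kinase Camk4 by 7.29 ± 0.101 and 6.97 ± 0.101. Both were near background in yNSCs and in NSCs, which limits the size of these falls. Nfatc3, a transcription factor activated by calcineurin, rose by 2.09 ± 0.210 and 2.92 ± 0.210. Camk2d was not called in yNSCs (-0.18, adjusted p = 0.324).

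Of 11 measured regulators of calcium channels, 4 were higher and 6 lower in yNSCs, 2 higher and 8 lower in NSCs (medians -0.66 and -0.82), and between yNSCs and NSCs 5 were higher, 3 lower and 3 not called (median 0.15), beside 21.3% and 18.0% of all genes. Ahnak, a large scaffold that binds the calcium channel beta subunit, read 4.94, 4.48 and 4.79 in neurons, 4.23, 4.62 and 4.12 in NSCs and 7.70, 8.09 and 8.20 in yNSCs. It rose by 3.26 ± 0.173 in yNSCs and was not called in NSCs (-0.41, adjusted p = 0.0510). Gem, a small GTPase that inhibits calcium channels, was higher by 2.49 ± 0.274 in yNSCs and by 1.17 ± 0.274 in NSCs. Akap5 fell by 2.51 ± 0.160 and 1.94 ± 0.160. Pvalb, a calcium buffer of interneurons and muscle, read 7.15 to 7.39 in yNSCs against 4.59 to 5.17 on the 6 other arrays.

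REST is the repressor that keeps many neuronal genes, sodium channels among them, silent in other cells. Rest read 6.24, 6.14 and 5.77 in neurons, 8.83, 8.71 and 8.46 in NSCs and 8.32, 8.27 and 8.37 in yNSCs. It was 2.27 ± 0.138 higher in yNSCs than in neurons (adjusted p = 2.39e-08) and 2.62 ± 0.138 higher in NSCs (adjusted p = 6.11e-09), and the stem cell groups did not differ at the threshold (-0.35, adjusted p = 0.0666). Of 8 genes of the REST complex, 5 were higher and 1 was lower in yNSCs, and 6 were higher in NSCs (medians 0.74 and 1.61), beside medians of -0.01 and -0.07 over all genes and 34.6% and 33.3% of all genes called higher. Between yNSCs and NSCs, 1 of the 8 was higher and 5 were lower in yNSCs (median -0.455), beside 21.3% and 18.0% of all genes. Rcor2, a corepressor, read 8.05 to 8.57 in NSCs, 6.57 to 6.81 in yNSCs and 6.33 to 6.58 in neurons, Sin3a rose by 1.49 ± 0.103 and 2.0 ± 0.103, and Kdm1a was called against neurons in neither. Whether these changes bear on the channel genes was not tested.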

How the data were processed

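Cortical neurons, NSCs and yNSCs were measured on 9 Affymetrix Mouse430_2 arrays, 3 per group, grouped by the labels. The authors deposited RMA values, a log2 scale summary of each probe set (version and arrays normalized together not given in the sources used here). They were used as deposited. Of 45101 probe sets, 64 were controls and were dropped. Gene names came from the platform annotation, in which 34945 had a single symbol (34741 matched RefSeq), 932 several and 9160 none here. A probe set that blends transcripts, saturates or lies near background compresses differences, and the number of arrays limits the precision.

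Group means were fitted over 18193 genes of the 9 arrays together (limma 3.58.1, R 4.3.3, 6 residual and 5.59 prior degrees of freedom), with 3 two-sided comparisons, Benjamini-Hochberg adjustment over all genes, a threshold of 0.05 and no minimum fold. SE is the moderated standard error. The fit was tested on simulated data.

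Values on every array were given for the 8 members with the largest called differences per comparison without overlap, the member of highest mean per subunit class, and members at least 2-fold higher in stem cells. Scn8a, Cacna1a and others outside this rule were named to account for all members. The members and lists were chosen with earlier results of these data known. Settings tried beside these were a block for the replicate letter, a fit to the 6 arrays of a comparison alone, no genes among the 40% of lowest mean, quantile normalization again, array medians subtracted, the mean of all probe sets, probe sets with an a, s or x suffix only where a gene had no other, a trended robust prior, a 2-fold minimum, and leaving out each array.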

Additional observations from a re-analysis of the deposited data

Results flagged for a closer look

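Fgf14 and Cacnb2 were called in opposite directions against neurons in the stem cell groups, with the difference between yNSCs and NSCs tested in the same fit. For Fgf14 yNSCs were below NSCs by 4.40 on the log2 scale (-4.40, limma adjusted p = 2.43e-09), with all NSC arrays above and all yNSC arrays below the neurons. For Cacnb2 the difference was 1.15 (adjusted p = 1.82e-06), with yNSCs above and NSCs below neurons. Both comparisons with neurons share the same 3 neuron arrays, and the probe sets of Fgf14 disagree in NSCs.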

How the results depend on the processing

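Over 20 members named with values on every array, 1071 differences were recomputed under the alternatives. Of these, 1030 stayed on their side of the threshold with no called difference turning, 28 lost a call and 10 gained one, and 3 called differences turned. Differences called in neither setting changed sign 20 times. The called ones that turned were Fgf11 in NSCs against neurons with the mean of all probe sets (-0.005), and, with suffixed probe sets (a, s or x) avoided where a gene had another, Cacna1h in NSCs against neurons (-0.38) and between yNSCs and NSCs (0.0033). These alternatives use another probe set by construction. Leaving out the 40% of genes of lowest mean kept 22 members and thus gave fewer lower members, 17 in yNSCs and 17 in NSCs against neurons, 3 higher members between yNSCs and NSCs, and medians of -2.49 in yNSCs and -1.59 in NSCs. Medians against neurons moved to -1.77 and -1.18 with quantile normalization again, to -1.55 in yNSCs with array medians subtracted, to -0.87 in yNSCs with the mean of all probe sets and to -1.51 in NSCs with suffixed probe sets avoided. In these last settings the other median stayed near its main value, at -0.84 in NSCs and -1.57 in yNSCs, so that the medians of yNSCs and NSCs lay close together. The mean of all probe sets gave 3 higher members in NSCs against neurons and 12 in yNSCs against NSCs, where the main count was 5. The calls gained between yNSCs and NSCs were those of Fgf11, Cacna1d, Cacna1e, Cacnb1, Cacnb4, Cacng5, Cacng7 and Cacng8, and that of Scn2b was lost. Each gained gene has a probe set, other than the one that stands for it, called higher in yNSCs than in NSCs. Why the probe sets of a gene differ was not tested. A 2-fold minimum left 2 higher members in yNSCs and 3 in NSCs against neurons, and 0 higher and 4 lower between yNSCs and NSCs (limma, also 0 higher at an unadjusted p under 0.05). Leaving out each array gave medians of -1.77 to -1.58 in yNSCs and -0.96 to -0.79 in NSCs against neurons, and 2 to 5 higher members between yNSCs and NSCs. Subtracting array medians moved the median of all genes from -0.01 to 0.08 in yNSCs and from -0.07 to -0.02 in NSCs.

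No sign was seen that the replicate letters pair the samples. Deviations of arrays with the same letter correlated between -0.11 and 0.10, and in 2 of 18 cases an array correlated best with its own letter in another group. The labels do not say whether the letters pair the arrays, and so few arrays per group cannot exclude it. With the letter as a replicate block, 26 members were lower and 4 higher in yNSCs against neurons, 26 and 5 in NSCs against neurons, and 8 and 5 between yNSCs and NSCs. Near-background signal limits the size of the falls of Scn1a, Scn3a, Scn2b and Cacna2d4 in both stem cell groups and of Fgf14 in yNSCs, on the probe set that stands for each gene.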
